A study of Mus musculus with 11 samples.

Results

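Retinoic acid is made from vitamin A and acts as a diffusible signal through nuclear receptors. The 9 genes described here cover the steps of that pathway in the mouse forelimb bud: retinol uptake (Stra6), synthesis (Aldh1a2), binding inside the cell (Crabp1 and Crabp2), breakdown (Cyp26a1 and Cyp26b1) and the nuclear receptors (Rara, Rarb and Rarg). They were picked by name from the count table, 9 of 47517 rows, and all 9 were found and had enough reads to be tested. In the limb bud, retinoic acid made in the trunk marks the proximal part, where Meis genes are expressed, and Cyp26b1 clears it from the distal part. The receptors bind DNA as partners of RXR proteins, at repeated copies of a short core motif, and some genes of the pathway are themselves targets of the signal.

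RNA-seq was made from forelimb buds of C57BL/6 embryos at E10.5, when the bud is growing out. Mutants were Gmnn f/f; Prx-Cre and controls were Gmnn +/f; Prx-Cre, so every embryo carried the Cre transgene and at least 1 floxed allele, and no embryo without Cre was compared here. Gmnn encodes Geminin, an inhibitor of the replication licensing factor Cdt1. Prx-Cre drives recombination in limb mesenchyme, so that ectoderm, endothelium and blood in the same bud keep an intact gene. There were 5 controls and 6 mutants from 4 litters: A (controls 1 and 2, mutants 1 and 2), B (control 3, mutant 6), C (control 4, mutant 5) and D (control 5, mutants 3 and 4). The title of the series concerns Hox regulation in limb patterning, and the design text states that embryos were matched by litter and somite number.

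Libraries held 14721181 to 19733288 counted reads, and levels are given as CPM, reads scaled to a common library size with TMM factors. Gmnn was 139 to 239 CPM in controls and 99.5 to 138 CPM in mutants, with no overlap (-0.67 as a log2 fold change, SE 0.10, edgeR adjusted p 0.0291). The forelimb gene Tbx5 was 64.8 to 123 CPM in all libraries. The hindlimb gene Pitx1 was 4.07 CPM in control 2 and at most 0.595 CPM in the others. Over all 15821 genes tested, 345 passed an adjusted p of 0.05 between genotypes, which is 2.18%: 1.48% were lower in mutants and 0.702% higher. This number was unstable: leaving out 1 library gave 1 (without control 4 or mutant 5) to 850 genes (without control 5), no litter block gave 13, adjustment for the T-run index (defined with Stra6) gave 2 and DESeq2 gave 1194. Control 5 (distal Hox sum 18.2 CPM) and control 3 (138 CPM) lay at the ends of the range for 5 distal Hox genes, and the results where leaving them out ended a call or moved a value most are also given without them.

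The start regions of Rarb and Cyp26a1 are shown first because each holds the letters of a retinoic acid response element, and because the levels of these genes can then be read beside it. The 300 bases from 250 before to 50 after each start site (RefSeq, GRCm38.p6) were searched on both strands for the core motif AGGTCA and its common forms AGTTCA and then GGGTCA and also GGTTCA, and for a pair of cores in the same direction with 1, 2 or 5 bases between them. Windows were given for 8 of the 9 genes, all but Crabp2. A pair spaced by 5 bases was found in Rarb and in Cyp26a1, and no pair of any of the 3 spacings in the other 6. Among all 27025 genes with a window, 31 (0.115%) held a pair spaced by 5 bases. Of all 32851 windows, 0.222% held a pair spaced by 1 base, 0.268% by 2 bases and 0.0974% by 5 bases. A core, alone or within a pair, was found in 5 of the 8 genes and in 46.9% of all genes. The repeat before Rarb is, as background, a long-known response element of that gene. Here the letters only describe the sequence, and no binding was measured. Below, the 120 bases before each start site are written on the strand of the gene, with the 2 cores of the pair and their spacer in capitals. The Rarb stretch also holds a further core, GGGTCA, which is outside the pair and left in lower case. The Rarb stretch is chr14:16575477-16575596 on the minus strand, and the Cyp26a1 stretch is chr19:37697688-37697807 on the plus strand.
Rarb: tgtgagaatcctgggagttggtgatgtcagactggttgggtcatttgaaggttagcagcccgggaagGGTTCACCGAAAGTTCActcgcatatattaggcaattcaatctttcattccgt
Cyp26a1: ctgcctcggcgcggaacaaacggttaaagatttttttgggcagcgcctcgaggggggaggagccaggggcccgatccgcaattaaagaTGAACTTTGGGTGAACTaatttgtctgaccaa

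The repeat lies at bases -53 to -37 before the start site of Rarb, in the direction of the gene. It lies at -32 to -16 in Cyp26a1, on the opposite strand. Each is written here on the strand where the cores read forward, with the cores in capitals, because in this form the sequences can be compared.
Rarb: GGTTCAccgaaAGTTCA
Cyp26a1: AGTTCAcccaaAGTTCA
They share 15 of 17 bases. Counted from 1 at the 5′ end, Rarb to Cyp26a1 differs as G1A and G9C, and the core nearer the 3′ end is the same.

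In mm10, the build of the counts, Aldh1a2 spans chr9:71215789-71296243 and Crabp1 chr9:54764748-54773110, on the plus strand of the chromosome that also holds Stra6. Crabp2 spans chr3:87948666-87953376, Cyp26a1 chr19:37697808-37701528 and Rara chr11:98927818-98974942, all on the plus strand. Cyp26b1 spans chr6:84571414-84593908, Rarb chr14:16430842-16575472 and Rarg chr15:102234938-102257517, all on the minus strand. No exon base of these genes lies in another gene of the annotation, so that reads were not lost or shared at overlaps.

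Stra6 encodes the membrane receptor that takes up retinol from its carrier protein in the blood, and it was the member whose level fell in mutants. Controls 1 to 5 had 70.8, 54.2, 68.0, 56.1 and 70.4 CPM. Mutants 1 to 6 had 50.8, 40.6, 46.5, 50.8, 36.1 and 37.5 CPM. Every mutant lay below the lowest control, and the lowest values were in mutants 5 and 6, of litters C and B. Controls averaged 63.9 ± 8.11 CPM (SD, n = 5), and mutants averaged 43.7 ± 6.56 CPM (SD, n = 6). With litters blocked in edgeR's quasi-likelihood test, the log2 fold change was -0.58 (SE 0.10, 95% interval -0.79 to -0.37, adjusted p 0.0336 over all genes), a ratio of 0.668. The mutant mean was lower in 4 of 4 litters, by -0.45, -0.86, -0.64 and -0.53 in litters A to D. All mutants lay below all controls in 1.30% of all genes tested, and above them in 1.29%. Stra6 is on chromosome 9 (58063788 to 58153996, plus strand, mm10), and none of its exon bases lie in another gene of the annotation used for counting.

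The Stra6 call was close to the threshold. It was kept without control 2, control 5 or mutant 2, and without each of the other 8 libraries (controls 1, 3 and 4, mutants 1, 3, 4, 5 and 6) the adjusted p was 0.0540 to 0.165, with fold changes of -0.65 to -0.52. Without litter as a block it was -0.55 (adjusted p 0.0549), and without controls 3 and 5 together, a choice made after seeing the data, it was -0.51 (adjusted p 0.149). One library measure moved with genotype: the mean log2 CPM of 959 genes with a run of at least 18 T bases in a transcript (the T-run index) lay between 4.451 and 4.823 in the control libraries and between 4.263 and 4.634 in the mutant ones. The longest T run of Stra6 is 14 bases. After adjustment for the T-run index its log2 fold change was -0.46 (adjusted p 0.357), and the part of this measure in the difference was not tested further. In bulk tissue, fewer cells that express a gene and less RNA per cell cannot be told apart.

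**Figure D1:**
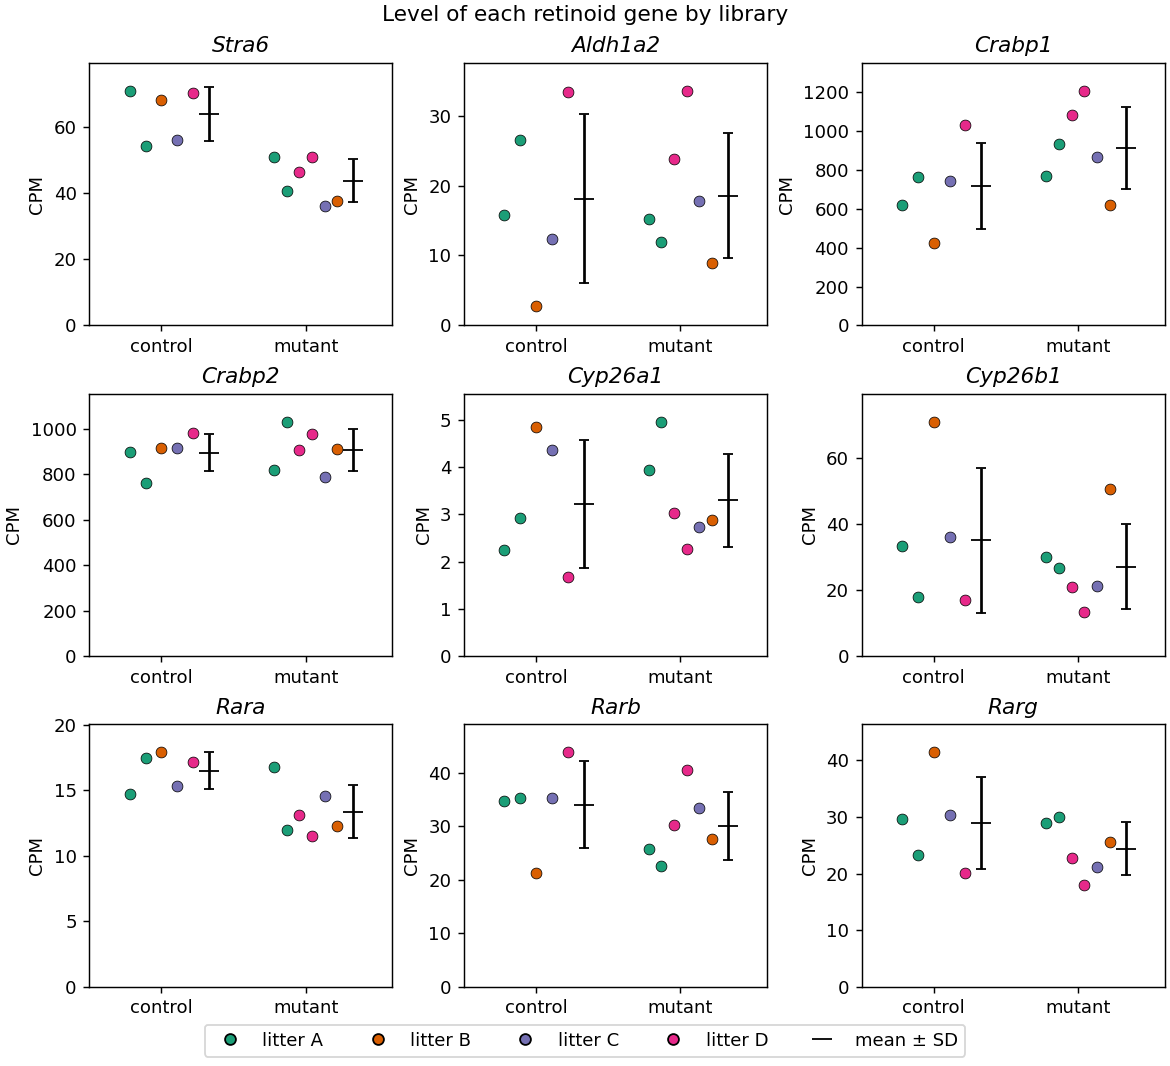
CPM of each of the 9 genes (vertical axes, from 0) in the 5 control and 6 mutant libraries, 1 point per library coloured by litter, with mean ± SD beside each group. In Stra6 the 6 mutants (36.1 to 50.8 CPM) lie below all 5 controls (54.2 to 70.8 CPM), and in the other 8 genes the groups overlap.

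Of the 9 genes, 1 passed the threshold between genotypes, Stra6, beside 2.18% of all genes tested. A further 2, Crabp1 and Rara, had an unadjusted p under 0.05 in the edgeR test, a mark that 21.4% of all genes reached. The median log2 fold change was -0.17 over the 9 genes and 0.00 over all genes tested, with 4 of the 9 above 0 and 5 below.

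Aldh1a2 encodes the enzyme that makes most of the embryo's retinoic acid, from retinaldehyde. It was the most variable of the 9 genes. Controls 1 to 5 had 15.8, 26.5, 2.73, 12.3 and 33.4 CPM, and mutants 1 to 6 had 15.2, 11.9, 23.8, 33.5, 17.8 and 8.96 CPM. Both libraries of litter B were the lowest of their groups, and the highest of each group came from litter D. The highest library had 12.3 times the level of the lowest, or 3.74 times without control 3, and the groups overlapped. Between genotypes the log2 fold change was 0.04 (SE 0.27, edgeR adjusted p 0.955), with a 95% interval from -0.56 to 0.64 that holds sizeable changes in both directions. The difference was 1.67 in litter B and 0.53 in litter C, but -0.60 in litter A and -0.24 in litter D. A test of whether the genotype difference varied between litters gave an edgeR adjusted p of 0.950 for Aldh1a2. No gene of the 15821 passed that edgeR test (0%), 605 (3.82%) had an unadjusted p under 0.05 in it, and Aldh1a2 and Cyp26a1 were among them. Without control 3 the log2 fold change of Aldh1a2 was -0.24.

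Cyp26b1 and Cyp26a1 encode cytochrome P450 enzymes that break down retinoic acid. Cyp26b1 had 33.3, 17.7, 70.8, 36.1 and 16.9 CPM in controls 1 to 5 and 29.9, 26.6, 20.9, 13.3, 21.1 and 50.4 CPM in mutants 1 to 6. Here litter B held the highest library of each group and litter D the lowest, the reverse of Aldh1a2. Mutants differed from controls by -0.18 on the log2 scale (SE 0.19, 95% interval -0.59 to 0.23, edgeR adjusted p 0.627). Cyp26a1 was the least abundant of the 9, with 24 to 89 reads per library. It had 1.68 to 4.85 CPM in controls (median 2.93) and 2.26 to 4.96 CPM in mutants (median 2.95), and the groups overlapped. Its log2 fold change was 0.17 (SE 0.27, 95% interval -0.43 to 0.76, edgeR adjusted p 0.775). The direction differed between litters: mutants were higher in litters A (0.76) and D (0.60) and lower in litters B (-0.73) and C (-0.65).

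Crabp1 and Crabp2 encode small proteins that bind retinoic acid in the cytoplasm, and Crabp2 is known to pass it to the receptors in the nucleus. Crabp1 had 618, 764, 424, 742 and 1031 CPM in controls 1 to 5 and 766, 933, 1083, 1204, 867 and 617 CPM in mutants 1 to 6. The mutant mean was above the control mean in 4 of 4 litters, by 0.30, 0.54, 0.22 and 0.15 on the log2 scale (12.6% of all genes tested were higher in 4 of 4). The groups as a whole overlapped, and the litter means spanned 1.08 on the log2 scale. The difference between genotypes was 0.29 (SE 0.09, 95% interval 0.10 to 0.48) and missed the threshold (edgeR adjusted p 0.0875). DESeq2 gave the same fold change with an adjusted p of 0.0250, and edgeR without the filter on low counts gave 0.00407. Crabp1 passed in only these 2 of 24 alternatives. They also called more of all the genes they tested, 7.55% and 5.35%, against 2.18% in the main fit. Adjusted for the T-run index it was 0.08 (edgeR adjusted p 0.825).

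Crabp2 was the steadiest of the 9 genes. It had 759.6 to 979.7 CPM in controls (median 915) and 789 to 1029.9 CPM in mutants (median 909), and the highest library had only 1.36 times the level of the lowest. Its log2 fold change was 0.00 (SE 0.09, edgeR adjusted p 0.987), with a 95% interval of -0.18 to 0.19. The SD of its log2 CPM over the 11 libraries was 0.14, where the median gene of at least 5 CPM had 0.20. The SD was 0.43 for Crabp1 and 1.02 for Aldh1a2, and 99.5% of the 10089 genes of at least 5 CPM had a lower SD than Aldh1a2.

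Rara, Rarb and Rarg encode the retinoic acid receptors alpha, beta and gamma, and none passed the threshold between genotypes. Rara had 14.7, 17.5, 17.9, 15.3 and 17.2 CPM in controls 1 to 5 and 16.8, 12.0, 13.1, 11.5, 14.6 and 12.3 CPM in mutants 1 to 6. Of the 6 mutants, 5 lay below the lowest control and mutant 1 lay among the controls. It differed by -0.30 on the log2 scale (SE 0.12, 95% interval -0.57 to -0.03, edgeR adjusted p 0.195), with a lower mutant mean in 4 of 4 litters, as in 13.5% of all genes tested. Rarb ranged from 21.3 to 43.8 CPM in controls (median 35.2) and from 22.6 to 40.5 CPM in mutants (median 28.9). Its log2 fold change was -0.22 (SE 0.13, 95% interval -0.50 to 0.06, edgeR adjusted p 0.343). Rarg ranged from 20.1 to 41.4 CPM in controls (median 29.6) and from 17.9 to 30.0 CPM in mutants (median 24.1), with -0.17 (SE 0.14, 95% interval -0.47 to 0.14, edgeR adjusted p 0.528). Rarb and Cyp26a1, the genes with the repeat shown above, thus had small differences of opposite sign, and neither passed the test.

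**Figure D2:**
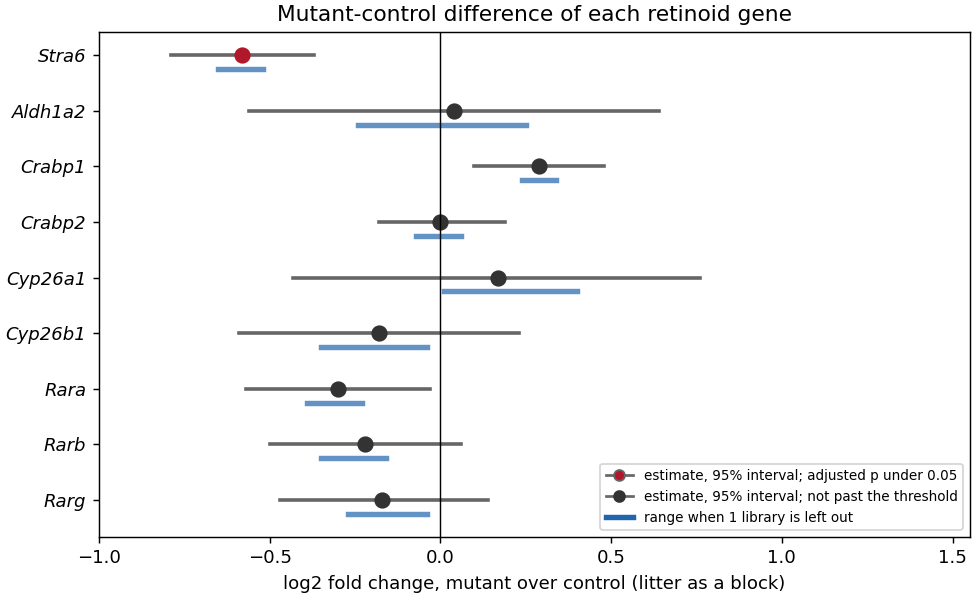
Log2 fold change of each gene, mutant over control, with its 95% interval (grey), and the range of the estimate when 1 library is left out (blue). The interval lies wholly below 0 for Stra6 (red, adjusted p 0.0336) and Rara and wholly above 0 for Crabp1, and the widest intervals are those of Aldh1a2 and Cyp26a1.

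**Figure D3:**
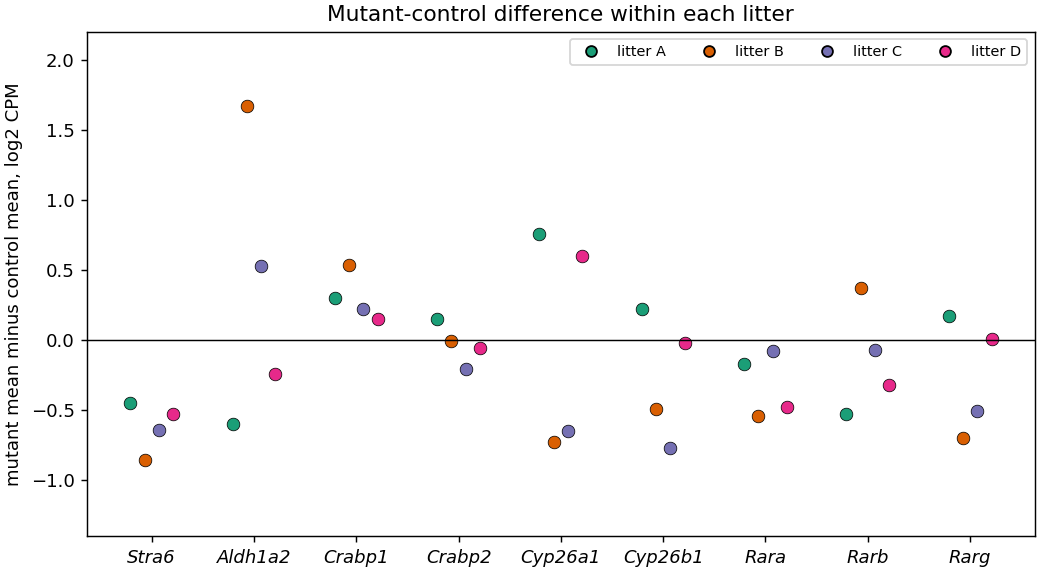
Mutant mean minus control mean in log2 CPM (vertical axis) for each gene within each of the 4 litters, 1 point per litter. Stra6 and Rara have 4 points below 0, Crabp1 has 4 above 0, and Aldh1a2 runs from -0.60 to 1.67.

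In the test between litters, 14 of the 15821 genes passed (0.0885%), and Crabp1 was 1 of them (edgeR adjusted p 0.0498). Its mean over both genotypes was 2.11 times as high in litter D as in litter B. Cyp26b1 came next (edgeR adjusted p 0.0869), with litter B 3.53 times as high as litter D. Aldh1a2 had an adjusted p of 0.130 in the same edgeR test, with litter D 6.02 times as high as litter B. In all, 5 of the 9 genes had an unadjusted p under 0.05 between litters, beside 13.5% of all genes tested. The other 2 were Rarb (edgeR adjusted p 0.299) and Rarg (0.342), each with a range of 1.61 times. Without controls 3 and 5, which leaves mutants alone in litters B and D, the same ratios between these litters were 3.12 for Aldh1a2, 3.01 for Cyp26b1, 1.85 for Crabp1, 1.27 for Rarb and 1.26 for Rarg. The litter means of Rara differed by no more than 1.03 times and those of Crabp2 by 1.13 times.

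Some of the genes fell into opposite orders over the litters. Aldh1a2, Crabp1 and Rarb were highest in litter D and lowest in litter B, while Cyp26b1 and Rarg were highest in litter B and lowest in litter D. Cyp26a1 was also highest in litter B and lowest in litter D, but less clearly (edgeR adjusted p 0.575 between litters). Its litter B mean was 1.74 times that of litter D, and 1.10 times without controls 3 and 5. The ratio of Cyp26b1 to Aldh1a2 reads (both in CPM) was 26.0 in control 3 and 5.63 in mutant 6, of litter B. It was 0.506 in control 5 and 0.879 and 0.398 in mutants 3 and 4, of litter D. It lay between 0.667 and 2.93 in the 6 libraries of litters A and C. Over the 11 libraries, which share litters and genotypes, Pearson's r of log2 CPM was -0.94 between Aldh1a2 and Cyp26b1 and -0.93 without controls 3 and 5. It was 0.87 between Cyp26b1 and Rarg (0.75 without controls 3 and 5) and -0.82 between Rarb and Cyp26a1 (-0.68), the genes that share the repeat. Pairs of genes without the repeat reached similar values, at -0.88 between Aldh1a2 and Rarg (-0.74) and -0.82 between Rarg and Crabp1 (-0.64). These correlations are descriptions and carry no test.

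Other measures moved with the litters as well. The summed level of the 5 distal Hox genes (Hoxa11, Hoxa13, Hoxd11, Hoxd12 and Hoxd13) was 138 and 137 CPM in litter B. It was 18.2, 78.6 and 33.2 CPM in control 5 and mutants 3 and 4 of litter D. In litters A and C it was 53.3 to 118 CPM, a range that holds mutant 3, so litter D as a whole was not set apart. Upk3b and Wt1, markers of the lining of the body cavity, were 1.58 and 2.78 CPM in control 3 and 2.82 and 4.66 CPM in mutant 6, and in the other 9 libraries they were 12.6 to 38.9 CPM and 6.11 to 17.1 CPM. The summed somite and trunk markers were 78.7 CPM in control 3, 71.3 CPM in control 5 and 42.8 to 56.7 CPM in the rest. This sum did not move with litter D as a whole, since mutants 3 and 4 had 42.8 and 45.5 CPM. Different markers made up the high sums. Tbx18 was 43.9 CPM and Meox1 14.7 CPM in control 3, against 14.9 and 51.9 CPM in control 5. Neural tube markers were all below 1 CPM in every library. The part of these in the order of the retinoid genes was not tested. The litter call of Crabp1 was lost without any of controls 3, 4 and 5 or mutants 1, 4, 5 and 6, with an edgeR adjusted p of 0.0692 to 0.353, and it was 0.353 without control 3 and 0.187 without control 5. Litter is here the only batch that the labels give.

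**Figure D4:**
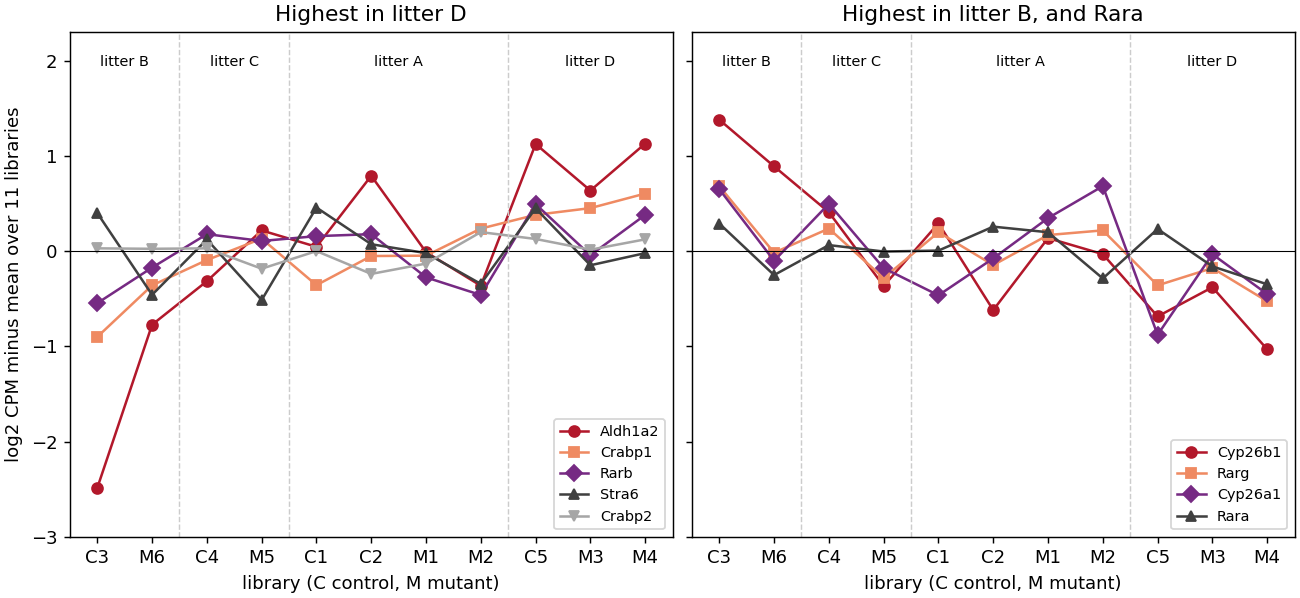
Log2 CPM of each gene minus its mean over the 11 libraries (vertical axis), libraries grouped by litter in the order B, C, A, D, which was chosen after the values were seen; lines join libraries only to guide the eye. Aldh1a2 climbs from the left to the right of the first panel and Cyp26b1 falls in the second, while Crabp2 stays near 0.

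Per length of exon, the binding proteins were by far the most abundant of the 9. In controls, log2 RPKM (CPM divided by kilobases of exon) was 9.74 ± 0.47 (SD, n = 5) for Crabp1 and 9.40 ± 0.14 (SD, n = 5) for Crabp2, a gap below the larger SD. Next came Rarb (3.46 ± 0.38) and Stra6 (3.45 ± 0.19), whose gap was also below it, and then Rarg (2.78 ± 0.40), Aldh1a2 (2.61 ± 1.39), Cyp26b1 (2.51 ± 0.85) and Rara (1.93 ± 0.13). None of the gaps between neighbours from Rarg to Rara exceeded the larger of their SDs. Cyp26a1 was the lowest, at 0.81 ± 0.62. In mutants, Stra6 was at 2.90 ± 0.22 (SD, n = 6) and stood at rank 5, after Aldh1a2 (2.91 ± 0.68).

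The rest of the pathway was read from a list of 24 other retinoid genes, of which 23 were in the table and 18 had enough reads to be tested. Of the 18, 1 fell, 0 rose, and the median log2 fold change was 0.03, where 1.48% of all genes tested fell and 0.702% rose. The gene that fell was Dhrs3, which encodes a reductase that turns retinaldehyde back into retinol and so limits synthesis. It had 102, 78.8, 129, 81.3 and 74.8 CPM in controls 1 to 5 and 51.9, 47.5, 58.1, 71.3, 73.2 and 69.4 CPM in mutants 1 to 6. All mutants were below all controls, with mutant 5 close to control 5. Dhrs3 differed by -0.58 on the log2 scale (SE 0.13, 95% interval -0.86 to -0.29, edgeR adjusted p 0.0468). The mutant mean was lower in 4 of 4 litters, as in 13.5% of all genes tested. The size was uneven, at -0.85, -0.90, -0.15 and -0.22 in litters A to D. The longest T run of Dhrs3 is 19 bases, and after adjustment for the T-run index its log2 fold change was -0.15 (adjusted p 0.752). Without control 5 the Dhrs3 call held (-0.69, adjusted p 0.0251), without each of the other 10 libraries the adjusted p was 0.0582 to 0.204, and without controls 3 and 5 together it was 0.149.

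Ncoa3, a coactivator of nuclear receptors, Rdh10, the dehydrogenase that makes retinaldehyde, and Rdh11, another retinol dehydrogenase, had the next smallest p in that list, and none passed. Ncoa3 averaged 130.3 ± 40.7 CPM (SD, n = 5) in controls, against 68.8 ± 23.4 CPM (SD, n = 6) in mutants. Its difference was -0.85 on the log2 scale (SE 0.20, edgeR adjusted p 0.0515), and it passed with RLE size factors, upper-quartile scaling, either other filter, limma-voom or DESeq2, and without control 5. It carries a T run of 26 bases, and adjusted for the T-run index the difference was 0.02. Rdh10 averaged 10.9 ± 4.31 CPM (SD, n = 5) in controls, against 14.9 ± 3.65 CPM (SD, n = 6) in mutants (log2 fold change 0.41, edgeR adjusted p 0.112). It passed without control 5, with 0.58 (adjusted p 0.0349). Rdh11 had -0.30 (edgeR adjusted p 0.121). The receptor partners Rxra, Rxrb and Rxrg had -0.02, 0.03 and 0.33, and none passed. Aldh1a1, Aldh1a3, Cyp26c1, Lrat and Adh7 did not reach the filter on low counts, and their highest library mean in either group was 0.286 CPM, so that Aldh1a2 was the only retinaldehyde dehydrogenase of the 3 listed with enough reads. These genes outside the naming rule were chosen after their values were seen.

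Of 10 genes known to respond to retinoic acid or to mark its domain, all tested, 2 fell and 0 rose, and the median log2 fold change was -0.36. Of all genes tested, 1.48% fell and 0.702% rose. Of the 10, 9 had a negative estimate, as had 49.3% of all genes tested. Meis1, a homeobox gene of the proximal limb, fell by 0.63 on the log2 scale (SE 0.10, edgeR adjusted p 0.0291), with 158 to 204 CPM in controls and 96.7 to 144 CPM in mutants. Of its exon bases, 18.3% lie in another gene, and reads there were not counted. Nr2f2, a nuclear receptor gene also called COUP-TFII, had 182, 173, 139, 185 and 169 CPM in controls 1 to 5 and 126, 97.7, 113, 131, 147 and 112 CPM in mutants 1 to 6. Mutant 5 lay above control 3 and the other mutants lay below all controls. Nr2f2 differed by -0.49 on the log2 scale (SE 0.09, edgeR adjusted p 0.0353), the gene carries a T run of 19 bases, and 7.46% of its exon bases lie in another gene.

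Adjusted for the T-run index, Meis1 and Nr2f2 had -0.34 and -0.26, and neither passed (adjusted p 0.371 and 0.408). Both calls held without control 5 or mutant 2 and were lost without any other single library, with adjusted p of 0.0530 to 0.140 for Meis1 and 0.0569 to 0.140 for Nr2f2. Without controls 3 and 5 together the adjusted p of each was 0.143. Tbx5, the forelimb T-box gene, and Nr2f1, the paralogue of Nr2f2, had -0.28 and -0.32 and did not pass (edgeR adjusted p 0.134 and 0.214). Meis2, a further proximal gene, had -0.07 (edgeR adjusted p 0.739).

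**Figure D5:**
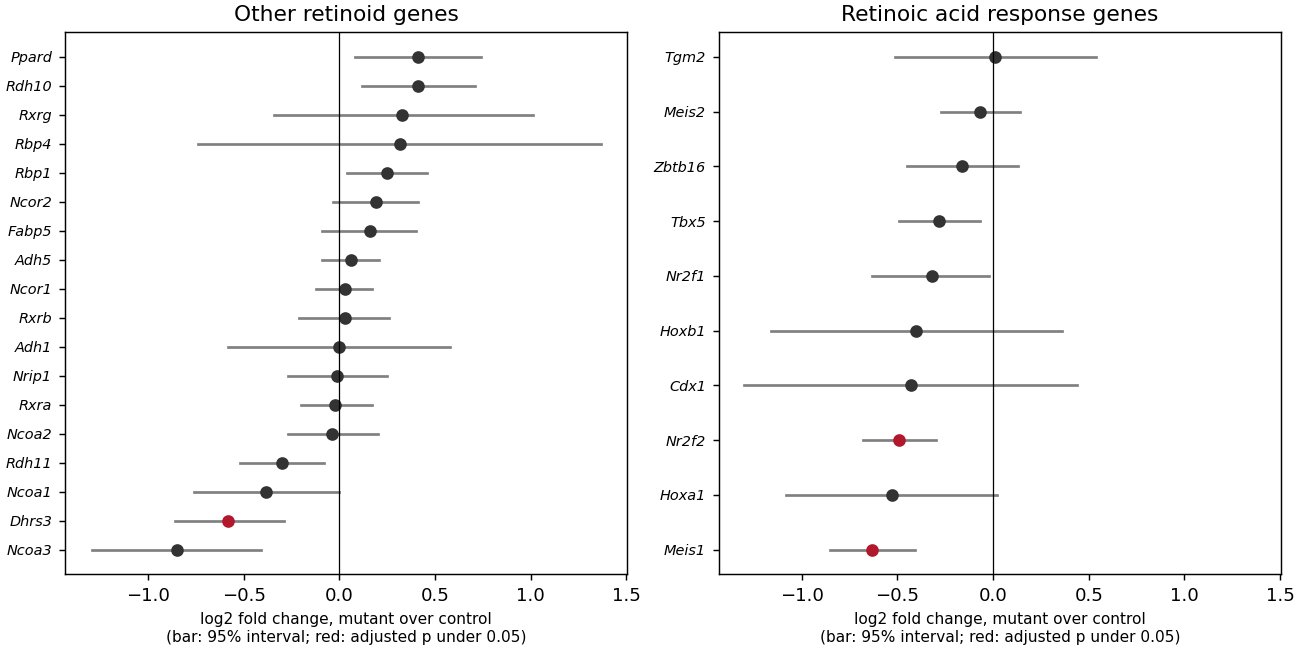
Log2 fold change, mutant over control, with 95% intervals, for the 18 other retinoid genes and the 10 response genes tested. Red points passed an adjusted p of 0.05: Dhrs3 on the left (-0.58), and Nr2f2 (-0.49) and Meis1 (-0.63) on the right.

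For each member, the genes of at least 5 CPM most like it over the 11 libraries were found by Pearson's r of log2 CPM among 9629 genes, as a description. Most like Aldh1a2 were Wfikkn1 (0.972), Sdk2 (0.971) and Parvb (0.964), and most like Cyp26b1 were Setbp1 (0.968), Rabgap1 (0.956) and Trib2 (0.954). Most like Crabp1 were Mrpl37 (0.964), Ebna1bp2 (0.961) and Hoxd3os1 (0.958), the last a transcript antisense to Hoxd3. Most like Rarb were Adamts1 (0.954), Prtg and Slc2a1, and most like Rarg were Gjb2 (0.952), Rasl11b and Mfap1a. For Cyp26a1 they were Dnm1 (0.924), Eva1a and Rab29, and for Rara they were Sap18 (0.908), Alas1 and Usp21. Stra6 was most like Pcif1 (0.905), Hmgxb4 and Ip6k2, and Crabp2 most like Cir1 (0.919), Tmem218 and Itgb5. Without controls 3 and 5 the leading values were 0.93 for Wfikkn1, 0.96 for Setbp1, 0.94 for Mrpl37, 0.91 for Adamts1, 0.94 for Gjb2, 0.88 for Dnm1, 0.88 for Sap18, 0.89 for Pcif1 and 0.92 for Cir1. The 11 libraries share litters, and no test is attached to these values.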

How the data were processed

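The authors deposited raw read counts per gene name for 11 libraries. Per the file headers, they were made with featureCounts 1.4.6-p4 on mm10 and GENCODE M9, at a mapping quality of at least 10 and with no option for strand or for reads over several genes, and the submitters' processing notes also list STAR 2.5.4b. Libraries were prepared after ribosomal RNA depletion, per the labels' protocols. Exon lengths are the authors' merged exon bases per gene name. They cover all isoforms, which lowers RPKM for genes with many.

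Counts were tested here with edgeR 4.0.16 in R 4.3.3: filterByExpr with the design (15821 genes, 99.9% of counts), TMM factors, and the quasi-likelihood F test of genotype, with litters blocked. Benjamini-Hochberg adjustment ran over all genes, at a threshold of 0.05. Intervals come from the same fit. Log2 CPM used a prior count of 2. The procedure was tested on simulated data. The simulated counts had no litter effect and the same relative spread for every gene, so the differences between litters seen here were not covered. T runs were found in GENCODE M21 transcripts, of the same genome build, GRCm38, and exon overlaps in the exons of the count table itself. The members and lists, and the rule that named the called genes or the 4 with the smallest p in each list, were chosen with earlier results of these data known. Alternatives used DESeq2 1.42.0 and limma 3.58.1, other scalings and filters, no block, left-out libraries and litters, and the T-run index.

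Litter numbers in the sample titles pair the libraries. Deviations from group means correlated across genes at -0.16 to 0.37 (median 0.13) over 8 pairs of libraries of the same litter and at -0.33 to 0.17 (median -0.02) over 22 pairs of different litters. Whether each library is 1 embryo or a pool is not stated beyond the titles, and p-values measure the spread between these libraries.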

Additional observations from a re-analysis of the deposited data

How the results depend on the processing

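Stra6 kept its negative sign in all 24 alternatives (adjusted p 9.56e-08 to 0.357) and passed in 10. The 24 are not independent. Litters B and C hold 1 control and 1 mutant each, and litters were blocked. Leaving out either library, or the whole litter, therefore gave nearly the same fit (-0.52 for litter B, -0.57 for litter C). Without control 5 and without litter D the fold change was also the same (-0.60). The number of the 9 genes called between genotypes was 1, and it was 2 (Stra6 and Crabp1) with no filter on low counts and with DESeq2. It was 0 with no replicate block, with the T-run index covariate, without controls 3 and 5 together, and without litter B, C or D. It ranged from 0 to 1 when 1 library was left out. The share of all genes called moved with it: 5.35% with no filter, 7.55% with DESeq2, 0.0822% with no block, 0.0126% with the T-run index covariate, 0.0241% without controls 3 and 5 together, 0.00638% to 0.953% without 1 litter and 0.00598% to 5.41% without 1 library. The same shares stand behind the counts of the other lists. Of the other retinoid genes, 1 was called, against 2 with RLE size factors, upper-quartile scaling, the filter of at least 1 CPM in 5 libraries, limma-voom or DESeq2, 3 with no filter, and 0 with no replicate block, the T-run index covariate, without controls 3 and 5 together, or without any 1 of the 4 litters. The left-out libraries gave 0 to 3. Of the response genes, 2 were called, against 5 with no filter and 0 with no replicate block, the T-run index covariate, without controls 3 and 5 together, or without any 1 litter (0 to 2 with 1 library left out). Between litters, 1 member was called, 5 with no filter (5.41% of all genes), 0 with RLE, upper-quartile scaling or the 1 CPM filter, and 0 to 2 with 1 library left out. The genotype by litter test called 0 members, and 1 (Aldh1a2) with no filter (438 of 29256 genes). Gmnn was -0.64 with no replicate block, -0.61 without controls 3 and 5 together, and -0.71, -0.65 and -0.57 without litters B, C and D, none past the threshold. Over left-out libraries it was -0.75 to -0.57, past the threshold in 3 of 11 (without control 1, control 5 or mutant 2; adjusted p 0.0105 to 0.139 over the 11). With the T-run index covariate it was -1.04 (adjusted p 0.00493).

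Among Gmnn, the 9 genes and the 8 named list genes, signs turned in 4. Aldh1a2 was -0.09 with limma-voom, -0.26 without controls 3 and 5 together, -0.24 without litter B and -0.08 without litter C, and -0.24 to 0.25 over left-out libraries. Cyp26a1 was -0.28 with the T-run index covariate and -0.25 without litter A. Crabp2 was -0.0015 with no filter, -0.19 with the T-run index covariate, -0.09 without litter A, and -0.07 to 0.06 over left-out libraries. Ncoa3 was 0.02 with the T-run index covariate. By the length of the longest transcript, 3 of the 9 genes kept their place in the order of levels. The cause of these changes was not tested. Of the 9 genes, Cyp26a1 had the fewest reads, 24 to 89 per library.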

Other observations

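Within the binding proteins, the ratio of Crabp2 to Crabp1 reads (both in CPM) was 2.16 in control 3 and 0.951 in control 5, and 1.48 in mutant 6 and 0.811 in mutant 4. The ratio of Rarb to Rarg reads was 0.514 in control 3, 1.08 in mutant 6, 2.18 in control 5 and 2.26 in mutant 4. Cyp26b1 exceeded Cyp26a1 in every library, by 5.36 to 17.5 times in CPM.

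The libraries of the extreme litters also differed in other cells' markers. Summed macrophage markers (Csf1r, Ptprc, Aif1 and Cx3cr1) were 11.5 and 13.0 CPM in litter B and 0.911, 4.10 and 3.45 CPM in control 5 and mutants 3 and 4 of litter D. Summed neural crest markers were 48.5 CPM in control 5 and 17.8 to 26.8 CPM elsewhere, with Foxd3 below 1 CPM in every library. Among the 9 retinoid genes and Gmnn, no library lay too far from the rest of its genotype by Dixon's criterion. This took 40 comparisons, of the highest and the lowest library in each genotype, which share libraries and so are not independent. The criterion ignores litter, and with 5 or 6 libraries per genotype it cannot show that no library is extreme. Control 3 had 2.73 CPM of Aldh1a2, where the other controls had 12.3 to 33.4 CPM. Its Dixon ratio was 0.598, still below the critical value of 0.71.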
